A study of Mus musculus with 6 samples.

Results

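The genes described here encode the enzymes that methylate or demethylate histones and those that remove acetyl groups from them. They were chosen by name: every gene of the 2 bulk RNA-seq tables, outside chromosome Y, whose symbol is Kdm, Kmt, Setd, Hdac, Sirt or Prmt followed by a number, together with Setdb1 and Setdb2. This gave 61 of 16279 genes, of which 59 are listed for both cell types. The rule itself uses names and no measured value, and it was set with earlier results of these data known. By the sites they are best known for, they comprise 14 methyltransferases of histone lysines, 4 other SET domain proteins, 17 lysine demethylases, 11 zinc-dependent histone deacetylases (HDACs), 7 sirtuins and 8 arginine methyltransferases (PRMTs).

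Lysine methylation of histone tails is written by SET domain enzymes and erased by the KDM proteins, and its effect depends on the residue: methylated H3K4 marks promoters and enhancers in use, H3K36 methylation lies over transcribed gene bodies, and H3K9, H3K27 and H4K20 methylation accompany repressed chromatin. HDACs remove acetyl groups with the help of zinc, while sirtuins do so with NAD as a cosubstrate and several act outside the nucleus. Pluripotent cells are known for open chromatin in which many developmental promoters carry activating and repressive methylation together, and lineage commitment is accompanied by changes in these marks.

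The comparison was between 2 cell types with 3 libraries each. The mESCs were male embryonic stem cells of the cross labelled C57BL/6 x CAST/EiJ, with a C57BL/6J mother and a CAST/EiJ father, derived as single-cell clones from blastocysts and grown with LIF and the inhibitors PD0325901 and CHIR99021. The CPCCs were cardiac precursor cell cultures of the same strain cross and sex, obtained from these stem cells through embryoid bodies with ascorbic acid and then passaged with EGF and Fgf2. No transgene or knockout was used, all 6 libraries share the F1 genome, and the CPCCs are mixed cultures and not sorted cells. The libraries are called S01, S02 and S03 (mESC) and S04, S05 and S06 (CPCC), as in the table columns, and values in every library are given below in that order. The columns could not be matched to replicate numbers or clones, so p-values measure only the spread between these libraries.

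The mESC libraries held 6442639 to 6907330 counts and the CPCC libraries 8468819 to 11436062. Levels are in CPM, counts scaled to 1000000 per library after TMM normalization. All 8 pluripotency markers fell in CPCCs, from summed levels of 4508 to 4956.5 CPM to 147.5 to 309 CPM, and the 4 tested of 8 mesenchymal markers rose, with sums of 10.8 to 18.6 CPM in mESCs and 10543 to 16338 CPM in CPCCs. Of 9 cardiac progenitor markers, 8 are listed for CPCCs and 4 for mESCs, with sums of 45.3 to 158 CPM and 3.97 to 4.68 CPM, and 1 of the 3 tested rose, Tnnt2 (log2 fold change 5.01, adjusted p = 0.000227 by edgeR). Mef2c (19.3, 9.95 and 12.8 CPM), Myh6 (21.2, 5.34 and 9.17 CPM), Hand1, Hand2 and Nkx2-5 (1.59, 0 and 0.92 CPM) are listed only for CPCCs, while Tbx5 is listed only for mESCs. Neural markers (3 of 3 tested rose, from sums of 38.8 to 46.4 CPM to 531 to 566 CPM) and endoderm markers (2 of 2 tested rose, from sums of 1.70 to 7.17 CPM to 31.4 to 55.3 CPM) moved as well. In bulk RNA, fewer cells of a type and less RNA per cell cannot be told apart, and the part of these other cell types in the values below was not tested.

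The comparison of CPCCs with mESCs asks which of these enzymes the cultures express differently after leaving pluripotency. Of the 58 members that could be tested, 13 rose and 22 fell in CPCCs at an adjusted p under 0.05 in edgeR's quasi-likelihood test, with p adjusted by Benjamini and Hochberg's method over all 12471 tested genes. A value after ± beside a log2 fold change is its standard error. The 35 calls are 60.3% of the members, beside 61.4% of all tested genes. Rises were 22.4% of the members against 31.7% of all genes, and falls 37.9% against 29.7%. The median log2 fold change was -0.21 over the members and 0.031 over all genes. A change of at least 2-fold past the threshold was seen in 20 members (5 higher, 15 lower), or 34.5%, beside 44.9% of all genes. The 3 libraries of one cell type lay wholly above those of the other in 41 members, or 70.7%, beside 69.7% of all genes. As a set these enzymes were thus called about as often as any other genes, and the differences lay between individual enzymes, as the plot of fold changes shows. Counts of called or non-overlapping genes in the small groups below are to be read beside these shares.

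**Figure D1:**
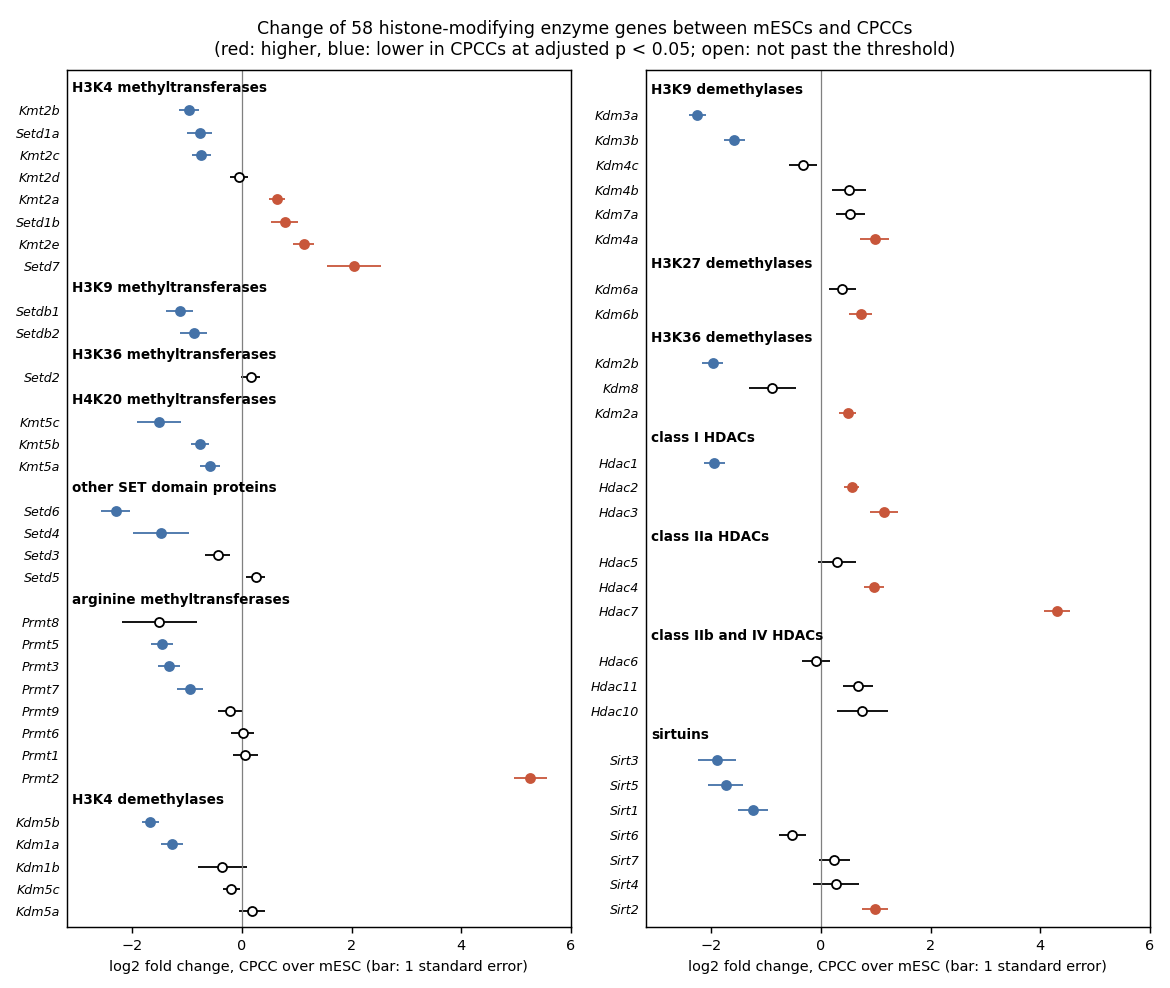
Log2 fold change of CPCC over mESC (x axis, bars of 1 standard error) for the 58 tested members, grouped by the site or class of the enzyme. Red points rose and blue points fell at an adjusted p under 0.05, and open points did not pass; Prmt2 (5.26) and Hdac7 (4.31) stand far to the right, and Setd6 (-2.30) and Kdm3a (-2.26) lie at the left end.

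The promoters of 50 members, 67 in all, were present in RefSeq's set for GRCm38.p6, each covering 250 bases before to 50 bases after a start. They were rich in CpG, with a median of 22 CpG dinucleotides in 300 bases beside 7 over all 32851 promoters. A GC box (GGGCGG, either strand) was found in 64.2% of the members' promoters and in 35.7% of all, and an ETS site (CCGGAAG) in 16.4% and 8.86%. A CCAAT box (CCAAT) was found in 43.3% and 37.4%, and a TATA box (TATAAA) in 4.48% and 13.6%. The promoters compared with belong to 27025 genes, whether or not these were expressed or tested here. Such matches are letters in a window and not tested sites. Shown here are the promoter of the member with the largest rise, that of a member listed only for CPCCs, and that of the member with the largest fall, with matches to these motifs in capitals.
Prmt2, chr10:76237816-76238115, minus strand: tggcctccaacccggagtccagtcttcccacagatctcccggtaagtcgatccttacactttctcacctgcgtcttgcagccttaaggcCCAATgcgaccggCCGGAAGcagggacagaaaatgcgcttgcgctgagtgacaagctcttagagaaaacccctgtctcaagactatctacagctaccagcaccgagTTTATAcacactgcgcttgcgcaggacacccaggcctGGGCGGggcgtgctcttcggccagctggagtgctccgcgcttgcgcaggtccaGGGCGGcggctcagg
Hdac9, chr12:34917046-34917345, minus strand: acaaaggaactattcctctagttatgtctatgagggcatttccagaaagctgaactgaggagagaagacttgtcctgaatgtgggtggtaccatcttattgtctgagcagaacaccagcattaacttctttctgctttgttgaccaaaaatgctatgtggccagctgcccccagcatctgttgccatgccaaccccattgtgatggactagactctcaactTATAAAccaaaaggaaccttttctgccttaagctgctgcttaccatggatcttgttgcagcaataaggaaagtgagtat
Setd6, chr8:95715663-95715962, plus strand: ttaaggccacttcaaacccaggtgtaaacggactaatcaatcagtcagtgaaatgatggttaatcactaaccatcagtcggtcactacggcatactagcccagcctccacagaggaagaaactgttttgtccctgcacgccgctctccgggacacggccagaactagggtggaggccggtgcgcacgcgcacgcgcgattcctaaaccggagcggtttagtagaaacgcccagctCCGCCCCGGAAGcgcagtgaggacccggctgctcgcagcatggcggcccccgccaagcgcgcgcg
The Prmt2 window holds 20 CpG, 2 GC boxes, a CCAAT box, an ETS site and a TATA box read on the other strand. The Setd6 window holds 28 CpG and a GC box that shares 1 base with an ETS site. Hdac9 has 2 promoters in the set, and the one shown, at the outer end of the gene, holds no CpG and a TATA box shortly before the start.

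Among the methyltransferases of H3K4, 7 of 8 (87.5%) were called, 4 upward and 3 downward, beside 61.4% of all tested genes. Setd7 adds a single methyl group to H3K4 and to many other proteins. It was measured at 21.5, 22.5 and 43.2 CPM in mESCs, against 222, 63.7 and 75.8 CPM in CPCCs. All CPCC libraries lay above all mESC libraries, and S04 lay far above S05 and S06. The log2 fold change was 2.05 ± 0.49 (adjusted p = 0.00581), and without S04 it was 1.28 (adjusted p = 0.00152 by the same edgeR test). Kmt2e, a family member whose SET domain is held to lack activity, rose from 50.7, 43.4 and 60.7 CPM to 128, 114 and 96.2 CPM (log2 fold change 1.13 ± 0.20, adjusted p = 0.001).

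The remaining H3K4 enzymes come in paralog pairs that build similar complexes, and within the pairs the members diverged. Kmt2a (MLL1), known for its role at Hox genes, rose from 85.0, 92.9 and 86.6 CPM to 131, 140 and 142 CPM (log2 fold change 0.64, adjusted p = 0.00508). Its paralog Kmt2b (MLL2), which methylates promoters in stem cells, fell from 81.0, 94.5 and 75.4 CPM to 36.4, 45.6 and 46.4 CPM (-0.97, adjusted p = 0.0017). Neither gene overlapped between the cell types. Setd1a and Setd1b, the catalytic subunits of the SET1 complexes, also parted. Setd1a fell from 62.0, 72.7 and 53.1 CPM to 27.6, 36.03 and 46.1 CPM (-0.78, adjusted p = 0.0165), and Setd1b rose from 12.1, 9.86 and 11.9 CPM to 17.2, 21.2 and 19.6 CPM (0.78, adjusted p = 0.0202). Both of these calls were lost without S02 or without S05 (adjusted p from 0.052 to 0.0731), and 51.9% of the exon bases of Setd1a are shared with other genes on the same strand, so its count is uncertain. Kmt2c and Kmt2d methylate enhancers. Kmt2c fell from 123, 116 and 123 CPM to 68.6, 64.8 and 83.7 CPM (-0.74, adjusted p = 0.00418). Kmt2d was at 109, 119 and 97.8 CPM in mESCs, beside CPCC values of 96.97, 111 and 106 CPM, overlapping values with a log2 difference of -0.052 (adjusted p = 0.793) whose sign turned when S02 or S04 was left out.

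Both H3K9 methyltransferases and all 3 H4K20 methyltransferases of the set fell. Setdb1, which trimethylates H3K9 and silences endogenous retroviruses in stem cells, went from 116, 121 and 154 CPM to 39.4, 64.8 and 73.8 CPM (log2 fold change -1.14 ± 0.25, adjusted p = 0.00356). Setdb2 went from 19.6, 19.0 and 23.0 CPM to 12.8, 9.21 and 11.3 CPM (-0.88, adjusted p = 0.0132). That call was lost without S05 (adjusted p = 0.0515). Kmt5a, the enzyme that places the first methyl group on H4K20, went from 116, 94.0 and 87.4 CPM to 66.9, 60.2 and 71.2 CPM (-0.58, adjusted p = 0.018), a call lost without S01 or S05 (adjusted p = 0.0909 and 0.0726). Kmt5b and Kmt5c add further methyl groups. Kmt5b fell from 111, 97.3 and 103 CPM to 67.4, 60.9 and 54.0 CPM (-0.77, adjusted p = 0.00342), and Kmt5c from 10.5, 15.9 and 14.3 CPM to 5.77, 5.95 and 2.52 CPM (-1.51 ± 0.40, adjusted p = 0.00917). No library of one cell type overlapped the other in any of these 5 genes, which also holds for 69.7% of all tested genes. Setd2, the enzyme that trimethylates H3K36, overlapped between the cell types at 152, 140 and 168 CPM in mESCs against 198, 141 and 174 CPM in CPCCs (log2 difference 0.16, adjusted p = 0.458).

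Of the other SET domain proteins, whose main substrates lie outside histones or are less settled, 2 of 4 fell. Setd6, a methyltransferase of the NF-kappaB subunit RelA, had the largest fall of all members. Its level was 46.1, 43.4 and 44.9 CPM in mESCs, against 6.86, 7.89 and 12.5 CPM in CPCCs (log2 fold change -2.30 ± 0.27, adjusted p = 0.000106). The mESC libraries lay within a narrow band, far above each CPCC library. Setd4 was low throughout, at 5.87, 6.18 and 4.54 CPM against 1.29, 3.155 and 1.49 CPM (-1.48 ± 0.51, adjusted p = 0.0308), and its call was lost without S01, S02, S04 or S06 (adjusted p from 0.0698 to 0.0899). Setd3, the actin histidine methyltransferase, was at 62.1, 74.9 and 88.8 CPM against 71.2, 44.2 and 50.3 CPM (-0.45, adjusted p = 0.12), and without S04 it passed the threshold (-0.66, adjusted p = 0.011). Setd5 was at 50.7, 51.7 and 50.3 CPM against 51.6, 65.0 and 64.7 CPM (0.25, adjusted p = 0.239).

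Among the demethylases of H3K4, 2 of 5 fell and none rose, beside 29.7% and 31.7% of all tested genes. Kdm1a (LSD1), the amine oxidase that removes one or more of the lower methyl states and works with CoREST and HDAC1 or HDAC2, went from 617, 656 and 578 CPM to 183, 293.5 and 283 CPM (log2 fold change -1.29 ± 0.20, adjusted p = 0.000553). Kdm5b, a JARID1 enzyme that removes trimethylation, went from 603, 641 and 509 CPM to 184, 189 and 177 CPM (-1.67 ± 0.15, adjusted p = 2.79e-05). Neither gene overlapped between the cell types. Per kb of annotated exon, Kdm1a stood at 119 CPM in mESCs and 48.9 CPM in CPCCs. Kdm5a, the paralog of Kdm5b, was at 123, 136 and 145 CPM against 210, 127 and 121 CPM (0.18, adjusted p = 0.509). S04 alone lay above the mESC range, and without it the Kdm5a difference was -0.10 (adjusted p = 0.557). The X-linked Kdm5c was at 71.1, 74.5 and 77.7 CPM against 63.1, 69.3 and 63.2 CPM (-0.19, adjusted p = 0.315). Kdm1b (LSD2) was at 16.7, 20.3 and 52.8 CPM in mESCs, where S03 stood apart, and at 32.6, 15.6 and 22.0 CPM in CPCCs. Its log2 difference was -0.36 (adjusted p = 0.511), and 0.34 without S03 (adjusted p = 0.445).

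Of 6 tested H3K9 demethylases 2 fell and 1 rose. Kdm3a and Kdm3b, which remove mono- and dimethylation, both fell. Kdm3a went from 199, 199.8 and 219 CPM to 42.1, 41.4 and 45.8 CPM (log2 fold change -2.26 ± 0.16, adjusted p = 6.63e-06). Kdm3b went from 119, 108 and 145 CPM to 44.1, 36.2 and 44.3 CPM (-1.58 ± 0.19, adjusted p = 0.000117). The ratio of Kdm3a to Kdm3b was higher in each mESC library than in any CPCC library. Kdm4a, a trimethyl demethylase of H3K9 and H3K36, rose from 8.66, 8.54 and 8.195 CPM to 14.7, 19.8 and 15.8 CPM (0.98 ± 0.26, adjusted p = 0.00993). Kdm4b, Kdm4c and Kdm7a did not pass the threshold, with log2 differences of 0.51, -0.33 and 0.54 and adjusted p from 0.097 to 0.29. Kdm4d is listed only for CPCCs, at 0.99, 1.21 and 0.80 CPM, with a mean 2.24 times the level of 3 counts per mESC library.

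Of the H3K27 demethylases, Kdm6b (JMJD3), an inducible enzyme, rose from 17.3, 15.01 and 16.2 CPM to 27.85, 26.6 and 25.9 CPM (log2 fold change 0.73 ± 0.21, adjusted p = 0.0134). The libraries did not overlap, and the call was lost without S02 (adjusted p = 0.0513). The X-linked Kdm6a (UTX) was at 15.8, 19.4 and 13.6 CPM against 21.0, 18.0 and 25.0 CPM (0.39, adjusted p = 0.204). The H3K36 demethylases Kdm2a and Kdm2b share a CXXC domain that binds CpG islands, and they moved in opposite directions. Kdm2b, which recruits a variant Polycomb complex to CpG islands, fell from 266, 243 and 320.2 CPM to 65.9, 62.0 and 83.25 CPM (-1.97 ± 0.19, adjusted p = 3.54e-05). Kdm2a rose from 90.4, 84.0 and 78.6 CPM to 113, 126 and 116 CPM (0.49 ± 0.15, adjusted p = 0.0219), and this small rise lost its call in 4 of the 6 fits that left out a library (S01, S02, S03 or S05; adjusted p from 0.0528 to 0.0794). Kdm8, grouped with them by its name as a demethylase, was at 5.72, 7.65 and 6.15 CPM against 2.19, 4.73 and 3.67 CPM (-0.89, adjusted p = 0.103).

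Class I HDACs are nuclear enzymes and the catalytic core of the Sin3, NuRD, CoREST and NCoR complexes. Their 3 tested members were all called, as were 61.4% of all tested genes. Hdac1 fell from 167, 155 and 186 CPM to 34.4, 47.6 and 49.9 CPM (log2 fold change -1.95 ± 0.20, adjusted p = 4.56e-05). Hdac2, its close paralog in the same complexes, rose from 208, 196 and 205 CPM to 299, 288 and 312 CPM (0.56 ± 0.14, adjusted p = 0.00701). Hdac3, the deacetylase of the NCoR and SMRT complexes, rose from 21.8, 23.0 and 16.2 CPM to 34.0, 56.9 and 44.1 CPM (1.15 ± 0.25, adjusted p = 0.00383). None of the 3 overlapped between the cell types, nor did 69.7% of all tested genes. The X-linked Hdac8 was removed by the filter on low counts, with 6, 8 and 0 counts in mESCs and 32, 24 and 5 in CPCCs; fitted without the filter its log2 difference was 1.67 (adjusted p = 0.187).

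Class IIa HDACs shuttle between cytoplasm and nucleus and bind MEF2 transcription factors. Hdac7, known for its role in endothelium, stood at 7.11, 7.51 and 4.68 CPM in mESCs, against 124, 143 and 115 CPM in CPCCs. The groups lie far apart, at a log2 fold change of 4.31 ± 0.24 (adjusted p = 2.49e-06). Hdac4 rose from 25.5, 28.6 and 32.2 CPM to 50.1, 58.5 and 59.9 CPM (0.96 ± 0.19, adjusted p = 0.00189). Hdac5 overlapped, at 14.7, 23.8 and 18.0 CPM against 12.9, 27.8 and 28.7 CPM (0.29, adjusted p = 0.478). Hdac9 is listed only for CPCCs, where its level was 14.8, 11.9 and 13.4 CPM, with a mean 29.85 times the level of 3 counts per mESC library. The mESC table leaves out genes with fewer than 10 counts in total. Both the class IIb enzymes Hdac6 and Hdac10 and the class IV enzyme Hdac11 missed the threshold. Hdac6, the cytoplasmic tubulin deacetylase, was at 34.3, 34.4 and 31.5 CPM against 23.2, 27.8 and 43.6 CPM, with a log2 difference of -0.085 (adjusted p = 0.792) that turned positive without S04 or S05. Hdac11 was at 13.6, 13.2 and 13.3 CPM against 14.4, 26.3 and 23.6 CPM (0.68, adjusted p = 0.0602). All its CPCC values were the higher, and without S04 it passed (0.91, adjusted p = 0.00535). Hdac10 was low in both (0.76, adjusted p = 0.184).

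**Figure D2:**
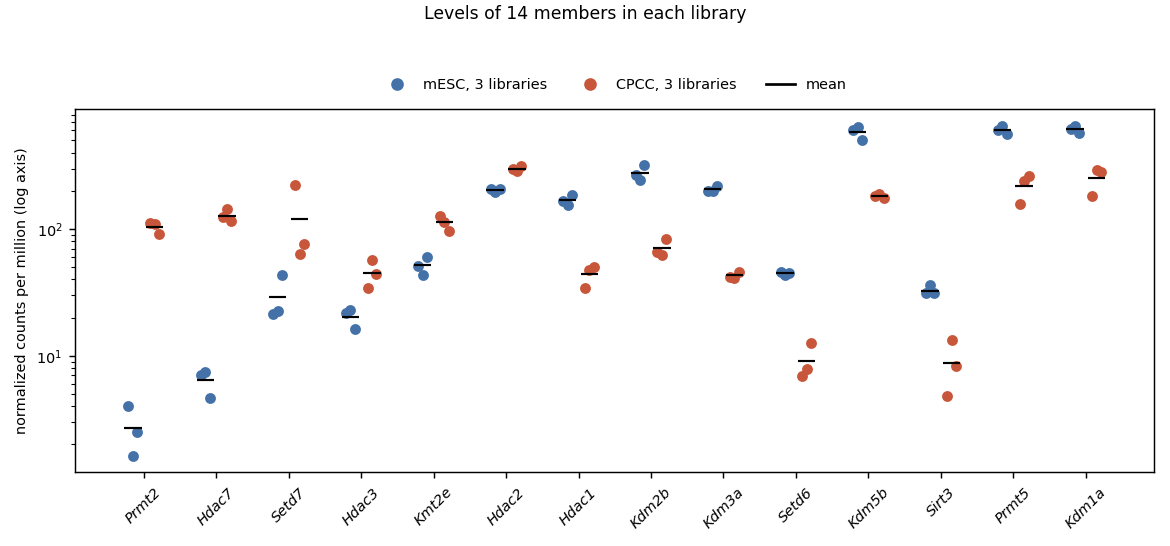
Level of 14 members in each library, in CPM on a log axis, with 3 mESC libraries in blue, 3 CPCC libraries in red and the mean as a black line. The 14 genes were all drawn from called members. In each, the blue and red points do not overlap, as holds for 69.7% of all tested genes. Setd7 has 1 CPCC library at 222 CPM and the others at 63.7 and 75.8 CPM.

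Among the sirtuins 3 of 7 fell and 1 rose, so that 57.1% were called, beside 61.4% of all tested genes. Sirt3, the main mitochondrial deacetylase, went from 31.1, 35.9 and 31.1 CPM to 4.77, 13.2 and 8.37 CPM (log2 fold change -1.90 ± 0.35, adjusted p = 0.00145). Sirt5, which removes succinyl and malonyl groups in mitochondria, went from 12.4, 15.2 and 19.0 CPM to 4.87, 3.76 and 5.275 CPM (-1.74 ± 0.32, adjusted p = 0.0014). Sirt1, the nuclear enzyme that deacetylates histones and p53, went from 50.2, 47.8 and 51.7 CPM to 20.2, 13.8 and 29.2 CPM (-1.24 ± 0.27, adjusted p = 0.00361). All 3 were higher in each mESC library than in any CPCC library. Sirt2, a mostly cytoplasmic deacetylase, rose from 22.4, 28.8 and 20.2 CPM to 43.0, 58.6 and 40.1 CPM (0.99 ± 0.23, adjusted p = 0.00554). Sirt4, Sirt6 and Sirt7 did not pass, with log2 differences of 0.27, -0.52 and 0.25 and adjusted p from 0.0934 to 0.586.

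The PRMTs held the largest single change of the set. Prmt2, an arginine methyltransferase of weak activity that acts as a coactivator of nuclear receptors, was scarcely present in mESCs at 4.02, 1.62 and 2.49 CPM, against 111, 109 and 92.0 CPM in CPCCs. Its log2 fold change was 5.26 ± 0.31 (adjusted p = 3.13e-06), with values between 5.002 and 5.65 when each library was left out. Prmt5, the main enzyme of symmetric arginine dimethylation, fell from 599.7, 649 and 567.5 CPM to 158, 241 and 261 CPM (-1.46 ± 0.20, adjusted p = 0.000296). Prmt3, which methylates a ribosomal protein, fell from 146, 160 and 144 CPM to 48.9, 55.4 and 74.9 CPM (-1.33 ± 0.20, adjusted p = 0.0004). Prmt7, the monomethylating enzyme, fell from 41.7, 37.4 and 50.6 CPM to 17.5, 23.7 and 26.1 CPM (-0.95 ± 0.23, adjusted p = 0.00618). Prmt1, the main enzyme of asymmetric dimethylation, overlapped at 108, 103 and 81.9 CPM against 74.1, 113 and 120 CPM (0.064, adjusted p = 0.816), and its sign turned without S03, S05 or S06. Prmt6 was at 31.8, 29.4 and 31.0 CPM against 34.8, 24.9 and 33.5 CPM (0.014, adjusted p = 0.957), and its sign turned without S02, S04 or S06. Prmt9 overlapped too (-0.22, adjusted p = 0.403). Prmt8, known from neurons, was at 12.7, 18.0 and 21.4 CPM in mESCs and spread from 0.99 over 4.73 to 12.6 CPM in S04, S05 and S06 (-1.51, adjusted p = 0.0811). Without S06 it passed (-2.61, adjusted p = 0.00575), and DESeq2 called it over all libraries (-1.52, adjusted p = 0.0412).

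Levels of different genes can be set beside each other only per length, here as CPM per kb of annotated exon (GENCODE vM21, all exons of a gene merged). On this scale Hdac1 (49.1 ± 4.42, SD, n = 3) and Hdac2 (45.4 ± 1.40) led the zinc-dependent HDACs in mESCs and did not differ beyond their spread, and the next were Hdac6 (5.74 ± 0.29) and Hdac3 (5.02 ± 0.89), within their spread of each other. In CPCCs Hdac2 led at 67.0 ± 2.68, followed by Hdac7 at 18.9 ± 2.13, Hdac1 at 12.8 ± 2.42 and Hdac3 at 11.1 ± 2.83, of which Hdac1 and Hdac3 lay within their spread of each other. Hdac9 reached 0.91 ± 0.10 in CPCCs. Among the PRMTs, Prmt5 had the highest level in both cell types, at 153 ± 10.4 in mESCs and 55.7 ± 13.8 in CPCCs. Behind it stood Prmt1 (28.6 ± 4.10) and Prmt3 (25.0 ± 1.48) in mESCs, and Prmt2 (30.8 ± 3.14) and Prmt1 (29.9 ± 7.23) in CPCCs, neighbours that did not differ beyond their spread. In mESCs Prmt2 was the lowest, at 0.80 ± 0.36. With the longest transcript as the length, Hdac1 stood above Hdac2 in mESCs (83.1 and 62.5 CPM per kb), and Prmt3 at 51.1 passed Prmt1 at 45.6. By that length Hdac1 in CPCCs (21.6) stood nearer to Hdac7 (24.6) than to Hdac3 (12.6).

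**Figure D3:**
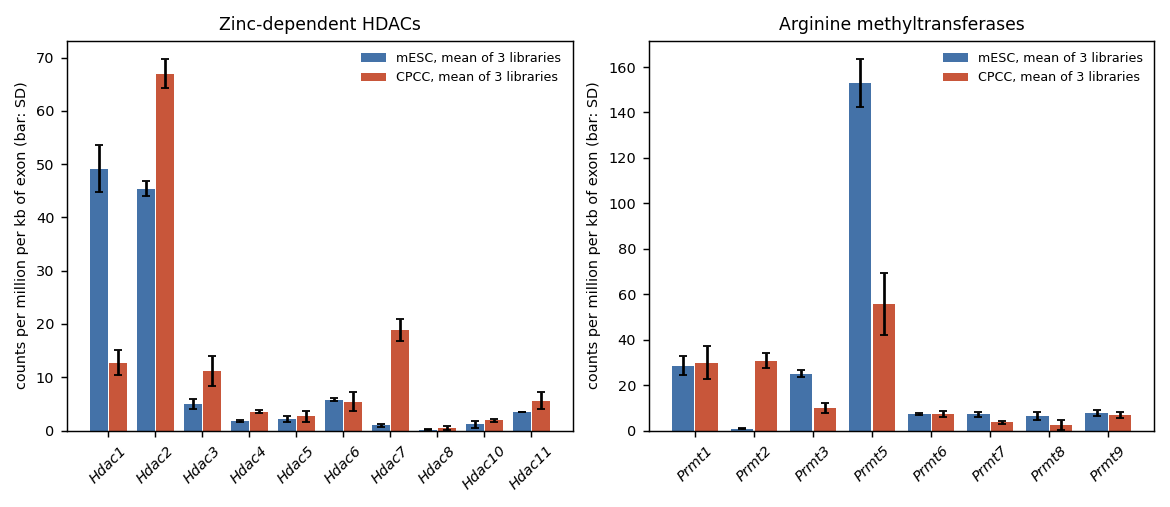
Mean level per length (CPM per kb of merged exon, linear axis from 0, bars of 1 SD over 3 libraries) of the zinc-dependent HDACs and the PRMTs in mESCs (blue) and CPCCs (red), without Hdac9, which is listed only for CPCCs. Hdac1 and Hdac2 stand side by side in mESCs and far apart in CPCCs (12.8 and 67.0), and Prmt2 goes from 0.80 to 30.8 beside an even Prmt1.

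Because several paralogs moved apart, the log2 ratio of normalized counts within 13 of 14 planned pairs was compared in each library (Hdac4 and Hdac9 could not be, since the mESC table does not list Hdac9), a measure that does not depend on how libraries are scaled. In 9 pairs the ratios of the 2 cell types did not overlap, a count to be read beside the 69.7% of all single genes that do not overlap. With 3 libraries against 3 the smallest p of an exact two-sided permutation test is 0.1, which these 9 pairs reached (0.144 after Benjamini-Hochberg adjustment over the 13), so this test could not pass 0.05. In 4 pairs, Hdac1 and Hdac2, Kdm2a and Kdm2b, Kmt2a and Kmt2b, and Setd1a and Setd1b, one gene rose and its partner fell.
The log2 ratio of Hdac1 to Hdac2 was -0.32, -0.34 and -0.14 in mESCs and -3.12, -2.60 and -2.65 in CPCCs, a shift of 5.75-fold in favour of Hdac2. The ratio of Kdm2a to Kdm2b went from -1.56, -1.53 and -2.03 to 0.78, 1.02 and 0.47, a shift of 5.52-fold, in favour of Kdm2a in CPCCs. For Kmt2a and Kmt2b the ratio went from 0.07, -0.02 and 0.20 to 1.84, 1.62 and 1.61 (3.05-fold), and for Setd1a and Setd1b from 2.36, 2.88 and 2.16 to 0.68, 0.76 and 1.23 (2.98-fold). The widest shift, 17.1-fold, was between Hdac5 and Hdac7, from a mean of 1.55 ± 0.46 to -2.54 ± 0.65 (SD, n = 3). Kdm5a gained on Kdm5b by 3.50-fold, Kdm4a on Kdm4c by 2.40-fold, and Kmt2d on Kmt2c by 1.62-fold. The ratios of Kdm1a to Kdm1b, Kdm6a to Kdm6b, Setdb1 to Setdb2 and Kmt5b to Kmt5c overlapped (exact p from 0.2 to 0.9).

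**Figure D4:**
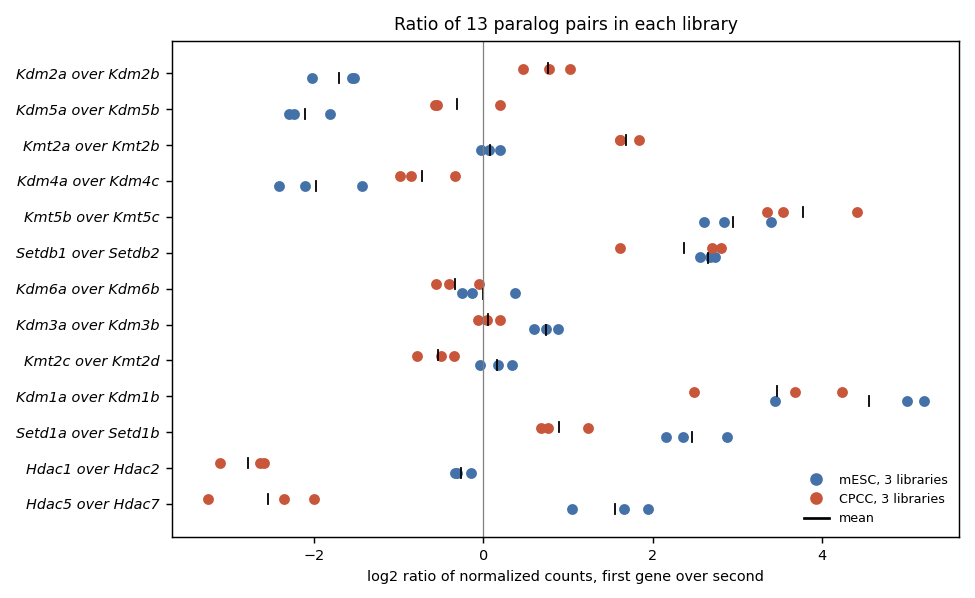
Log2 ratio of normalized counts within 13 paralog pairs (first gene over second, x axis) in each mESC library (blue) and CPCC library (red), with the mean as a short black line. Blue and red points do not overlap in 9 pairs, and the Hdac1 over Hdac2 ratio moves from a mean of -0.27 to -2.79.

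Other genes of histone methylation and acetylation, outside the naming rule, were taken as lists of 76 genes, 75 of them tested. Of these 12 (16%) rose and 35 (46.7%) fell, beside 31.7% and 29.7% of all genes, and the 62.7% called compare with 61.4% of all genes. Their median log2 fold change was -0.49. The counts of the smaller lists below are to be read beside the same shares. Among subunits of the COMPASS and MLL complexes, in which Kmt2 and Setd1 enzymes work, 9 of 13 fell and none rose. The steepest fall was that of Dpy30, a core subunit, from 464, 491 and 482 CPM to 54.7, 83.5 and 105 CPM (-2.56 ± 0.24, adjusted p = 2.9e-05). Of 27 subunits of HDAC complexes 5 rose and 10 fell. Rcor2, a CoREST protein that partners Kdm1a, fell from 37.7, 38.4 and 28.8 CPM to 3.78, 5.46 and 12.5 CPM (-2.27, adjusted p = 0.00136), and Chd3, a NuRD helicase, rose from 33.5, 37.8 and 27.4 CPM to 74.5, 124 and 89.5 CPM (1.54, adjusted p = 0.000479). The CoREST protein Rcor1 rose (0.48, adjusted p = 0.043 by edgeR), and Rcor3 did not pass (0.66, adjusted p = 0.0565).

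Of 13 histone acetyltransferases, the enzymes that oppose HDACs, 7 fell and 1 rose. Hat1, which acetylates new histone H4 before deposition, fell from 742, 748 and 744 CPM to 60.7, 127 and 168 CPM (log2 fold change -2.65 ± 0.33, adjusted p = 0.000146), and Kat5 (Tip60) rose from 7.88, 10.01 and 7.46 CPM to 14.02, 17.2 and 18.0 CPM (0.96, adjusted p = 0.0137). Of 16 tested methyltransferases with other names, nearly all of them lysine enzymes, 4 rose and 7 fell. This list includes the arginine methyltransferase Carm1, which was not counted among the PRMTs above and did not pass (0.35, adjusted p = 0.255 by edgeR). Suv39h1, which trimethylates H3K9 in heterochromatin, rose from 32.6, 41.2 and 26.9 CPM to 126, 131 and 158 CPM (2.04, adjusted p = 5.16e-05), opposite in direction to Setdb1 and Setdb2. Smyd3 fell from 41.3, 37.97 and 39.8 CPM to 6.46, 11.4 and 12.3 CPM (-1.98, adjusted p = 0.000283). Of 6 demethylases with other names 2 rose and 2 fell, among them Phf2 (1.66, adjusted p = 0.00133), an H3K9 demethylase, at 5.56, 4.71 and 4.83 CPM against 13.4, 14.7 and 19.8 CPM, and Riox1 (-1.31, adjusted p = 0.0107), a nucleolar oxygenase, at 24.6, 21.6 and 20.2 CPM against 4.67, 9.58 and 12.5 CPM.

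Counts of some members are less certain than their errors show. Besides Setd1a, 10 members share over 5% of their exon bases with a gene on the opposite strand, among them Kdm3b (24.6%), Prmt6 (23.5%), Hdac4 (22.4%), Hdac11 (17.9%) and Sirt3 (12.7%), and whether counting used the strand is not given in the sources used here. For 17 members at least 1 value lies over 0.05 from a whole number, and how these fractions arose was not tested. Kdm5c and Kdm6a have relatives on the Y chromosome of these male cells.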

How the data were processed

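PolyA-selected cDNA was made with the SMART-Seq v4 kit from 3 mESC and 3 CPCC samples and sequenced in pairs. The authors deposited estimated counts (expected counts) for each gene, raw and summed over both alleles, with a table for mESCs and a table for CPCCs. The submitters' processing notes name STAR 2.7 and mm10; the counter and strand setting are not given in the sources used here. Each table leaves out genes under 10 counts over its 3 libraries. Groups came from the labels, and all 6 columns were used (0 left unmatched).

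Counts were rounded. The 13001 genes in both tables passed through filterByExpr (12471 left) and edgeR's quasi-likelihood test (edgeR 4.0.16, R 4.3.3) with TMM factors, at an adjusted p under 0.05. The floor for a gene missing from 1 table was 3 counts per library (0.448 CPM on average in mESCs), which covers counting error only. Alternatives were DESeq2 1.42.0, upper-quartile factors, library totals, filters, a 2-fold threshold, genes of either table and leaving out each library. Promoters came from RefSeq, lengths and overlaps from GENCODE vM21.

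Members and lists were chosen with earlier results of these data known. Values in every library are given for members called with at least a 2-fold change, the largest rise and fall of each functional group, members in 1 table only, paralogs called in opposite directions, and members whose call or sign changed when 1 library was left out. Of other lists, the largest rise and fall are named, with a few related genes chosen after their values were seen. The promoters shown and a few further members were chosen after their values were seen. Figures were drawn with matplotlib 3.10.9 in Python 3.11.15.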

Additional observations from a re-analysis of the deposited data

How the results depend on the processing

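No called member changed direction in any fit run, and 28 of the 35 kept their call in all 6 fits that left out a library, while Kdm6b, Kdm2a, Setd1a, Setd1b, Setdb2, Kmt5a and Setd4 lost it in at least 1. Over those fits 10 to 14 members rose and 19 to 22 fell, and DESeq2 called 13 and 23. With genes of either table, 14 rose, Hdac9 being added. A test against a 2-fold change, which asks for more than the size of the fold, left 3 members higher and 9 lower, and of the other histone genes 3 higher and 14 lower. Among uncalled members the log2 difference changed sign in 6 when a library was left out: Kdm1b ranged from -0.66 to 0.34, Kdm5a from -0.10 to 0.33, Kmt2d from -0.12 to 0.023, Prmt6 from -0.061 to 0.15, Prmt1 from -0.064 to 0.26 and Hdac6 from -0.39 to 0.11. With at least 10 counts in every sample Kmt2d was at 0.034, Hdac6 at 0.0012 and Hdac11 passed (0.76, adjusted p = 0.0329 by edgeR), and with missing genes at 3 counts Prmt6 was at -0.053 and Prmt1 at -0.0078. The cause was not tested. Levels per length by the longest transcript, chosen after seeing the data, raised Hdac2 in CPCCs to 92.3, Hdac7 to 24.6 and Prmt5 in mESCs to 225 CPM per kb. Low counts limit Hdac8, Hdac10, Kdm4d, Setd4 and Sirt4. The paper derived its CPCCs from the same mESC clones, so libraries of both cell types share clones. No paired analysis was possible because no column names a replicate, and the planned replicate block was not run.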
